A study of Mus musculus with 94 samples.

Results

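The collagen genes were taken as every gene whose symbol is Col, a number, a and a number, so that each is 1 alpha chain of a collagen. The table of the study held 49080 genes, and 44 of them matched: 11 chains of fibrillar collagens, 8 chains of basement membrane collagens and 25 other chains. All 44 were followed over 4 treatments and 5 days. Levels are given as CPM, the counts of a gene brought to 1 common library size after scaling with trimmed means of M values (TMM).

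The samples were 94 tumors of the 4T1 line, a mouse mammary carcinoma, grown under the skin of the right hind limb of female BALB/c mice that were 8 weeks old at injection. Tumors of 100 to 200 mm3 were divided into 6 Gy (a single dose of x-rays, 5 tumors a day), INDO (indomethacin, a cyclooxygenase inhibitor, at 30 mg/L in the drinking water, 5 tumors a day), 6 Gy + INDO (both, 5 tumors a day and 4 on day 3) and untreated control (4, 5, 5, 3 and 3 tumors on days 1, 3, 7, 15 and 23). Days count from irradiation, and each library is the total RNA of 1 tumor. Carcinoma cells and host cells were therefore read together, and fewer cells of a type and less RNA per cell cannot be told apart. The labels call the cells epithelial, and the epithelial genes Epcam (186 to 757 CPM) and Krt8 (435 to 1309.7 CPM) were read in every tumor. Libraries held 20995830 to 109300093 counts. In 11 tumors over 300 CPM fell on olfactory and vomeronasal receptor genes (3 of 6 Gy + INDO on day 3, 3 on day 7 and 2 on day 23, 1 INDO tumor on days 1 and 15 each, and 1 control on day 15), and counts that change without them are given both ways.

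Collagens are triple helices of 3 alpha chains. Type I (Col1a1, Col1a2) and type III (Col3a1) form the banded fibrils of connective tissue and are made mainly by fibroblasts, with type V and XI chains built into the same fibrils to set their width. Type IV chains form the sheet-like network of basement membranes under epithelia and around vessels, and types XV and XVIII sit beside that sheet. The other chains form beaded filaments (type VI), anchoring fibrils (type VII), short-chain networks (types VIII and X), coats on fibrils (the FACIT chains) or stay in the cell membrane (types XIII, XVII, XXIII and XXV). In tumors the fibrillar chains are known as products of the stroma, and several type IV, VII and XVII chains are known as products of epithelial cells.

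Sequence before the start site is shown for 2 chains called lower over the course in every treatment (Col3a1, Col1a2), for Col7a1, called higher in every treatment, and for Col4a5, called higher after 6 Gy and 6 Gy + INDO. The RefSeq table of promoters (build GRCm38.p6, the mm10 assembly) held 38 entries for 35 of the 44 genes. Each line gives the 150 bases before the RefSeq start, 5′ to 3′ on the strand of the gene, which is the plus strand in all 4. Capitals mark the motifs searched on both strands, which were the CCAAT box, the TATA box in the form TATAAA and the GC box in the form GGGCGG.
Col3a1: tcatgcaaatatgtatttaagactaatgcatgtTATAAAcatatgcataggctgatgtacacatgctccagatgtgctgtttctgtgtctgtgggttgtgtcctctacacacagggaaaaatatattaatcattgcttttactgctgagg
Col1a2: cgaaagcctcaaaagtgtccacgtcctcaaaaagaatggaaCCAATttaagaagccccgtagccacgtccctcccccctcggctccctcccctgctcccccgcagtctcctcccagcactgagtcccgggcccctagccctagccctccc
Col7a1: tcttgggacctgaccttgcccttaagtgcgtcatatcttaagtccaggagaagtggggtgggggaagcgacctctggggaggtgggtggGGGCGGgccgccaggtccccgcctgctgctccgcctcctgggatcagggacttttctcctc
Col4a5: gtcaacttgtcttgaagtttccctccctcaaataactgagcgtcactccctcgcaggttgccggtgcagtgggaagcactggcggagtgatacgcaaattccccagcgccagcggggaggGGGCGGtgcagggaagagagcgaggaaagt
The windows lie at chr1:45311388-45311537, chr6:4505468-4505617, chr9:108953436-108953585 and chrX:141475269-141475418. Within these 150 bases Col3a1 had TATAAA, Col1a2 had CCAAT, and Col7a1 and Col4a5 each had GGGCGG. In the windows of 250 bases before the start, GGGCGG was found in 22 of 38 collagen entries and in 32.7% of all 32851 promoters, CCAAT in 13 of 38 and in 33.8% of all, and TATAAA in 5 of 38 and in 12.4% of all. A match is a match of letters only.

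The summed level of the 44 chains was 0.349% to 2.43% of the library size after TMM scaling (median 0.906%). Over the 94 tumors, Col3a1 (1437 CPM), Col1a1 (1364 CPM) and Col1a2 (1226 CPM) had the highest mean levels and together 40.7% of the summed collagen level. The 12 highest chains held 90.6% of it. Per kilobase of exon, the order was Col1a1 (208 CPM per kb), Col3a1 (146 CPM per kb), Col1a2 (98.7 CPM per kb), Col4a1 (89.7 CPM per kb), Col6a1 (78.5 CPM per kb), Col12a1 (70.6 CPM per kb) and Col7a1 (59.9 CPM per kb). Type I and III fibril chains thus led, followed by a basement membrane chain, a type VI chain, a FACIT chain and the anchoring fibril chain. Mean levels were at least 100 CPM for 16 chains, at least 1 CPM for 36 and under 1 CPM for 8. The lowest were Col9a1 (0.0260 CPM, with no count in 50 tumors), Col9a2 (0.0569 CPM) and Col26a1 (0.0927 CPM). Col9a1 passed the filter on low counts in no fit. Col9a2 and Col26a1 passed it only in the fit of all 94 tumors, so that 43 chains were tested over the course and 41 within a day (40 on day 15, where Col22a1 was left out as well).

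The mean summed level of the 11 fibrillar chains was lower than in controls under every treatment on days 1, 3 and 7, and the groups lay close together on day 15. On day 7 it averaged 2885 ± 769 CPM after 6 Gy, 4849.9 ± 1248 CPM under INDO and 2167 ± 1007 CPM after 6 Gy + INDO, against 12439.7 ± 3383 CPM in controls (SD, n = 5 each). The tumors of that day ranged from 1828 to 3856 CPM after 6 Gy, 3446 to 6864 CPM under INDO and 1291 to 3810.5 CPM after 6 Gy + INDO, against 9076 to 17194 CPM in controls, with no overlap. On day 3 the means were 4941 ± 1299 CPM after 6 Gy, 3349.5 ± 776 CPM under INDO and 4050.4 ± 680.3 CPM after 6 Gy + INDO, against 10497 ± 2129 CPM in controls (SD, n = 4 after 6 Gy + INDO and 5 in the others), and again no treated tumor reached the lowest control.

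On day 15 the control mean was the lowest of its 5 days: 3384 ± 2557 CPM after 6 Gy, 4671 ± 2578 CPM under INDO and 3310.3 ± 964 CPM after 6 Gy + INDO, against 3711 ± 786 CPM in controls (SD, n = 5 in treated groups and 3 in controls). The 6 Gy group of that day spread from 320.1 to 6052 CPM. On day 23 the means were 2503 ± 1295 CPM after 6 Gy, 1951 ± 503 CPM under INDO and 3504 ± 1824 CPM after 6 Gy + INDO, against 5033 ± 2578 CPM in controls (SD, n = 5 in treated groups and 3 in controls), with overlapping ranges. Basement membrane chains moved less. Their sum on day 7 was 1291 ± 243 CPM after 6 Gy, 1443 ± 103 CPM under INDO and 1227 ± 205 CPM after 6 Gy + INDO, against 1889 ± 354 CPM in controls. On day 15 it was 1495 ± 29.6 CPM after 6 Gy, 1413 ± 315 CPM under INDO and 1440.2 ± 75.0 CPM after 6 Gy + INDO, against 1217 ± 67.5 CPM in controls, so that the treated means stood above the control mean. The 25 other chains summed to 2912 ± 390.3 CPM after 6 Gy, 3289 ± 365 CPM under INDO and 2761 ± 786 CPM after 6 Gy + INDO, against 4959.9 ± 589.5 CPM in controls on day 7. On day 1 they summed to 3917 ± 286 CPM after 6 Gy, 4122 ± 634 CPM under INDO and 4377 ± 422 CPM after 6 Gy + INDO, against 3932 ± 250.4 CPM in controls. On day 7 the other chains of every treated tumor lay below the lowest control, while on day 1 the groups overlapped. The sums describe levels only and carry no test.

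**Figure D1:**
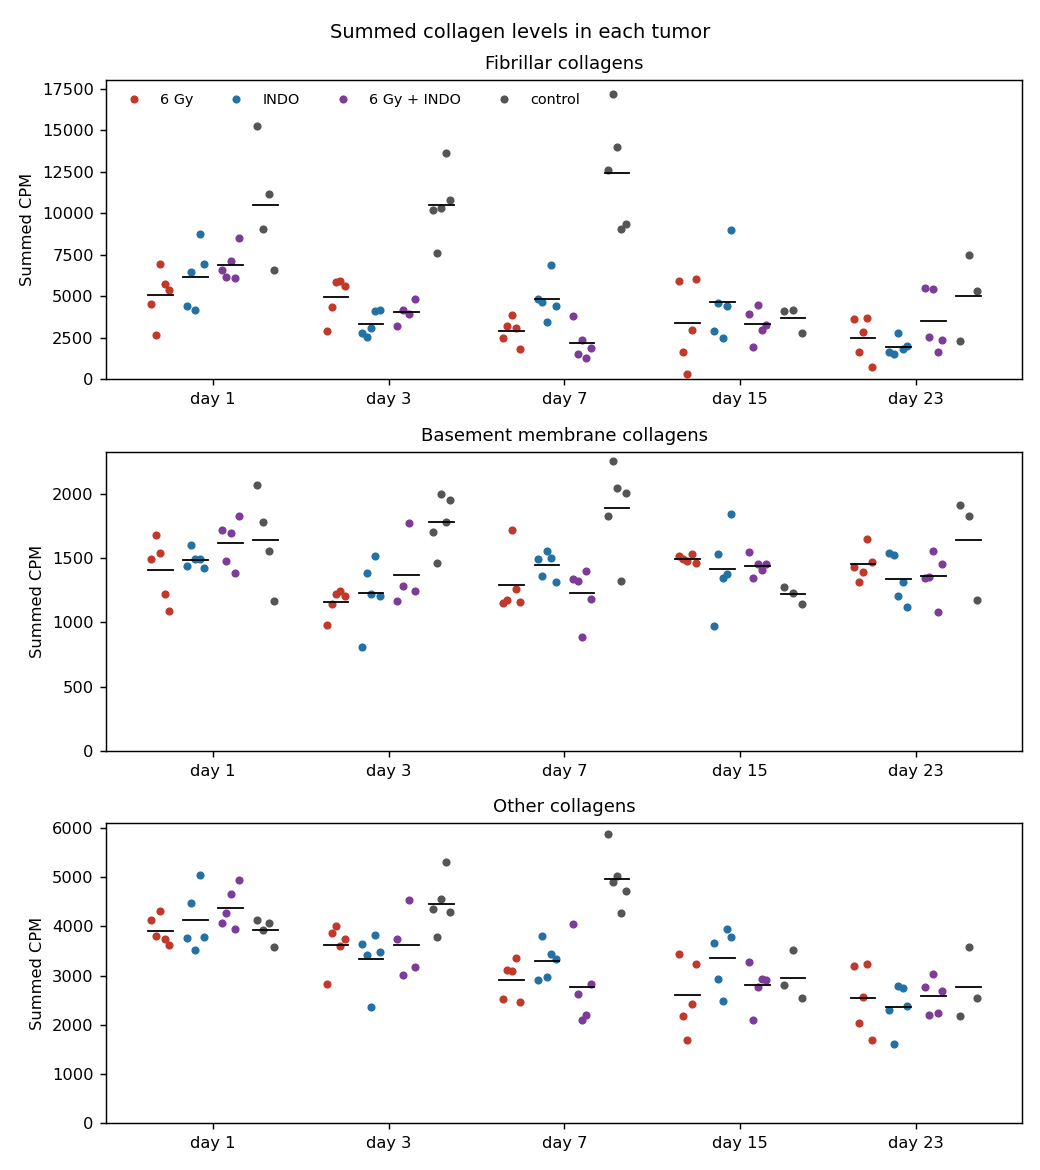
Summed CPM of the fibrillar, basement membrane and other collagen chains in each of the 94 tumors (points), by day and treatment, with bars for the group mean. On day 7 the fibrillar sums of the treated tumors reached at most 6864 CPM, and the lowest control stood at 9076 CPM.

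Each treatment was compared with the same controls, so the 3 comparisons of a day are not independent. A chain is called higher or lower where edgeR gave an adjusted p under 0.05 over all genes tested. On day 1, after 6 Gy 4 of 41 chains rose and 13 fell (of all genes, 6.15% rose and 9.43% fell), under INDO 5 rose and 9 fell (5.81% and 8.89%), and after 6 Gy + INDO 7 rose and 6 fell (10.7% and 13.3%). Leaving out control 1 of day 1 brought the 6 Gy count to 10, and the INDO count dropped to 7 without INDO tumor 2 or control 3, to 8 without control 1 and to 9 without INDO tumor 3. One fit of all 94 tumors called 7 chains after 6 Gy, 6 under INDO and 11 after 6 Gy + INDO on that day.

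On day 3, no chain rose and 11 fell after 6 Gy (3.62% and 4.1% of all genes), none rose and 14 fell under INDO (2.38% and 3.95%), and 4 rose and 12 fell after 6 Gy + INDO (10.1% and 9.43%). At an unadjusted p under 0.05, 1 chain was higher after 6 Gy and 1 under INDO, and DESeq2 called 0 higher after 6 Gy and 1 under INDO. The 6 Gy + INDO count of day 3 rests on few tumors: it was 9 without tumor 1, and 0 without the 3 tumors high in receptor reads, which leaves 1 tumor in the group. On day 7, 1 chain rose and 21 fell after 6 Gy (5.69% and 10.3% of all genes), 2 rose and 11 fell under INDO (12.7% and 11.7%), and 7 rose and 17 fell after 6 Gy + INDO (24.8% and 21.2%). The share of chains that fell stood above the background share in 8 of these 9 comparisons and close to it in the 6 Gy + INDO tumors of day 1.

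On day 15, edgeR called none of 40 chains in either direction after 6 Gy (0% of all genes called), under INDO (0%) or after 6 Gy + INDO (1.33%). At an unadjusted p under 0.05 there were 8 chains after 6 Gy (6 of them higher), 8 under INDO (7 higher) and 6 after 6 Gy + INDO (6 higher). DESeq2 called 1 chain after 6 Gy, 1 under INDO and 3 after 6 Gy + INDO, all higher. On day 23 edgeR again called none of 41 after 6 Gy (0% of all genes called), under INDO (0%) or after 6 Gy + INDO (0.00473%). At an unadjusted p under 0.05 there were 6 chains after 6 Gy, 3 under INDO and 6 after 6 Gy + INDO, and DESeq2 called 1, after 6 Gy + INDO. The controls of these days numbered 3 each, against 4 or 5 on the earlier days.

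Over the whole course, with the 5 days weighted alike, 3 of 43 chains rose and 22 fell after 6 Gy (9.19% and 10.6% of all genes), 5 rose and 19 fell under INDO (16.8% and 17.4%), and 7 rose and 18 fell after 6 Gy + INDO (29.6% and 23.2%). The 25 calls after 6 Gy dropped to 13 without day 7, and the 24 under INDO to 13 without day 3 and to 10 without day 7. Where a call of a single chain below is said to be lost in some of its alternatives, these are the other scalings, filters, fits and tool, and the runs without a tumor, a day or the tumors high in receptor reads. Among fibrillar chains, 9 of 11 fell after 6 Gy, 8 under INDO and 6 after 6 Gy + INDO, and 1 rose after 6 Gy and 1 after 6 Gy + INDO. Their median log2 fold changes were -0.76 after 6 Gy, -0.49 under INDO and -0.50 after 6 Gy + INDO, where all genes tested had medians of 0.03, 0.07 and 0.19 in the same comparisons. Of the 8 basement membrane chains, 3 fell and 1 rose after 6 Gy, 2 fell and 1 rose under INDO, and 2 fell and 3 rose after 6 Gy + INDO. Of 24 other chains tested, 10 fell and 1 rose after 6 Gy, 9 fell and 4 rose under INDO, and 10 fell and 3 rose after 6 Gy + INDO.

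The share of chains that fell depends on the scaling where INDO was given. When libraries were scaled to 14 housekeeping genes, the median over all genes of the log2 fold change for the whole course moved to 0.51 after 6 Gy + INDO, to 0.23 under INDO and to 0.07 after 6 Gy. The counts then became 17 higher and 9 lower after 6 Gy + INDO and 9 higher and 10 lower under INDO, while 6 Gy kept 3 higher and 20 lower. Within days this scaling gave 9 higher and 6 lower on day 3 and 11 and 13 on day 7 for 6 Gy + INDO, 6 and 6 on day 1, none and 6 on day 3 and 4 and 6 on day 7 for INDO, and 1 and 12 on day 1 for 6 Gy. Relative to the median of all genes, the change of Col3a1 after 6 Gy + INDO was -1.78 with TMM and -1.81 with housekeeping genes, that of Col1a1 -1.17 and -1.18, and that of Col7a1 0.43 and 0.41.

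**Figure D2:**
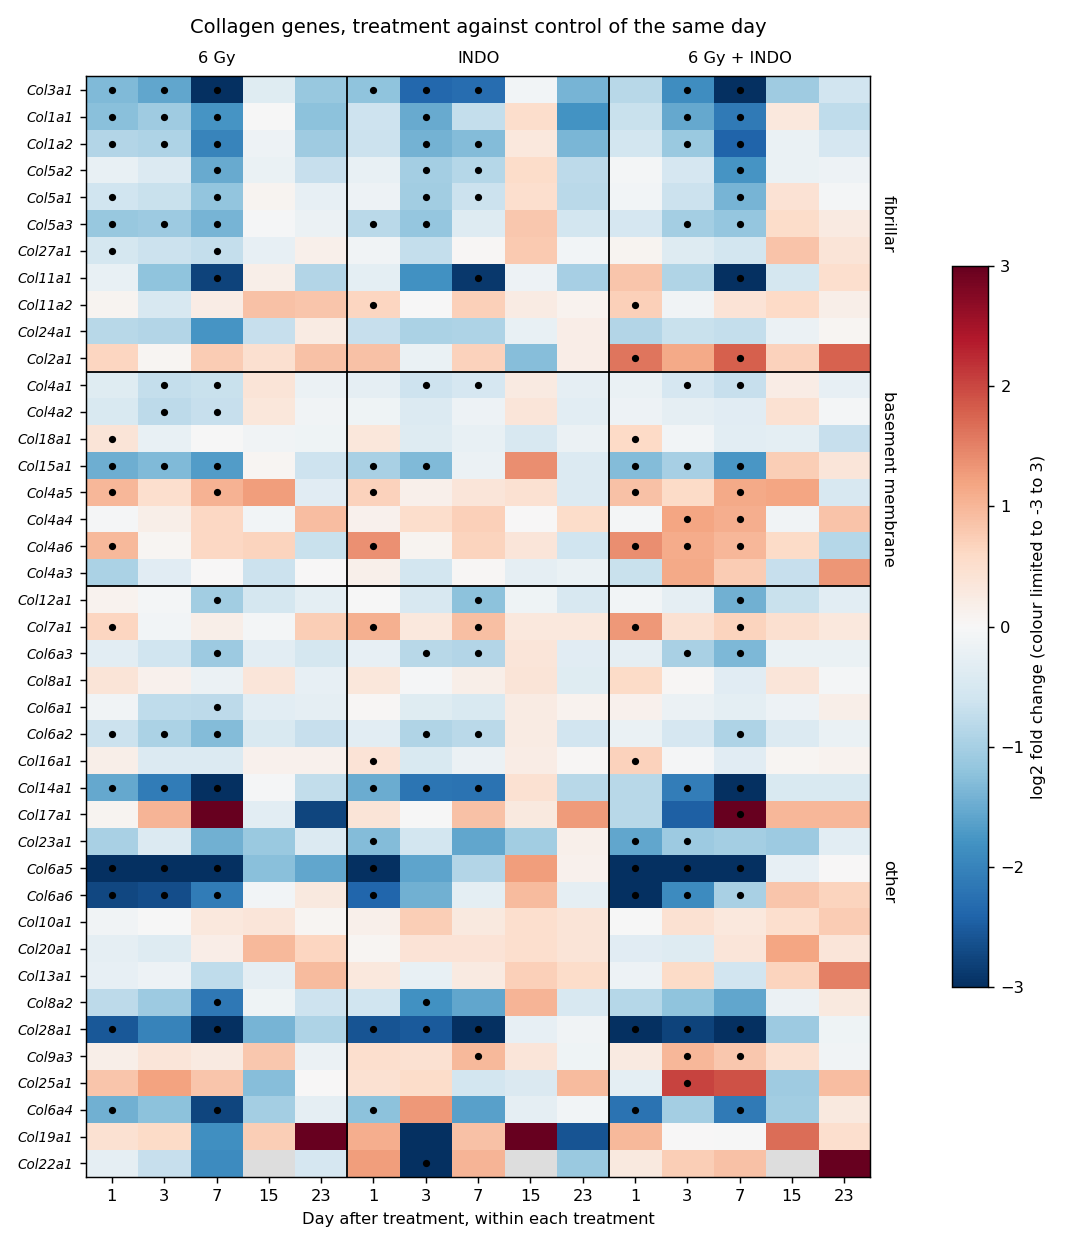
Log2 fold change against control of each tested collagen chain (one line each, grouped by class) for each treatment and day, on a colour scale that ends at 3 in both directions. Dots mark an adjusted p under 0.05 (edgeR) and grey marks chains not tested; dots gather on days 1, 3 and 7, and no chain has one on days 15 or 23.

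Among the fibrillar chains, Col3a1, the single chain of type III collagen, fell most of the abundant ones. On day 7 it had 468, 609.8, 844, 609.6 and 292 CPM in 6 Gy tumors, 904, 882, 442, 1383 and 1009 CPM in INDO tumors and 582, 272, 625, 187 and 269 CPM in 6 Gy + INDO tumors, against 5718, 6397, 5371, 2878 and 3109 CPM in control tumors. The highest treated tumor lay below the lowest control. The log2 fold changes of that day were -3.06 ± 0.39 (SE) after 6 Gy (adjusted p = 7.0e-05), -2.28 ± 0.38 under INDO (adjusted p = 0.0011) and -3.52 ± 0.40 after 6 Gy + INDO (adjusted p = 1.3e-05). Over the course they were -1.48 ± 0.23 (adjusted p = 4.5e-07) after 6 Gy, -1.49 ± 0.23 (adjusted p = 5.8e-07) under INDO and -1.59 ± 0.23 (adjusted p = 4.7e-08) after 6 Gy + INDO. Control levels of Col3a1 themselves averaged 3542 ± 1189, 3818 ± 1265, 4694 ± 1598, 1177 ± 494 and 1288 ± 681 CPM on days 1, 3, 7, 15 and 23 (SD, n = 4, 5, 5, 3 and 3). In the 6 Gy group of day 15, tumor 3 stood at 32.4 CPM, the lowest value of the course. Col3a1 overlaps the transcript Gm47302 on the same strand.

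Col1a1 and Col1a2 encode both chains of type I collagen. On day 7, Col1a1 had 683, 920.5, 1049, 871 and 546 CPM in 6 Gy tumors, 1579, 1674, 1258, 2430.0 and 1141 CPM in INDO tumors and 1376, 264, 517, 335 and 544 CPM in 6 Gy + INDO tumors, against 1916, 3968, 3406, 2536 and 2158 CPM in control tumors. The 6 Gy and 6 Gy + INDO values all lay below the controls, whereas INDO tumors overlapped them. The log2 fold changes of Col1a1 were -1.78 ± 0.36 (adjusted p = 0.0023) after 6 Gy, -0.72 ± 0.35 (adjusted p = 0.14) under INDO and -2.11 ± 0.36 (adjusted p = 0.00032) after 6 Gy + INDO, so that the call was made for 6 Gy and for 6 Gy + INDO. Col1a2 on day 7 had 642, 792, 1017, 795 and 459.5 CPM in 6 Gy tumors, 1239.7, 1040.3, 778, 1577 and 1122 CPM in INDO tumors and 885, 394, 568, 324 and 454 CPM in 6 Gy + INDO tumors, against 2835, 4281, 3135, 2230.4 and 2261 CPM in control tumors, with every treated tumor below the lowest control. Its log2 fold changes were -1.99 ± 0.27 (adjusted p = 0.00011) after 6 Gy, -1.29 ± 0.27 (adjusted p = 0.0037) under INDO and -2.41 ± 0.28 (adjusted p = 1.5e-05) after 6 Gy + INDO. Over the course both chains fell under all 3 treatments: Col1a1 had -1.06 ± 0.21 after 6 Gy, -0.85 ± 0.21 under INDO and -0.98 ± 0.21 after 6 Gy + INDO, and Col1a2 had -1.003 ± 0.18 after 6 Gy, -0.90 ± 0.18 under INDO and -0.98 ± 0.19 after 6 Gy + INDO (adjusted p from 1.1e-05 to 0.001). On day 15 the Col1a1 groups overlapped, at 813 ± 687 CPM after 6 Gy, 1169 ± 915 CPM under INDO and 1015 ± 327 CPM after 6 Gy + INDO, against 803 ± 82.2 CPM in controls.

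Type V chains, which join type I fibrils, fell by less. Col5a2 had 349.7, 435, 485, 399.8 and 243 CPM in 6 Gy tumors, 543, 536, 428, 720.2 and 686 CPM in INDO tumors and 449, 284, 340.4, 195 and 258 CPM in 6 Gy + INDO tumors, against 1344, 1373, 1007, 769 and 971 CPM in control tumors on day 7, and the groups did not overlap with control. Its log2 fold changes of that day were -1.52 ± 0.23 (adjusted p = 0.00021) after 6 Gy, -0.85 ± 0.22 (adjusted p = 0.013) under INDO and -1.76 ± 0.23 (adjusted p = 3.5e-05) after 6 Gy + INDO. Over the course, Col5a2 had -0.60 ± 0.16 after 6 Gy, -0.49 ± 0.16 under INDO and -0.56 ± 0.16 after 6 Gy + INDO. Col5a1 had -0.52 ± 0.14 after 6 Gy, -0.45 ± 0.14 under INDO and -0.37 ± 0.14 after 6 Gy + INDO, and Col5a3 had -0.76 ± 0.15 after 6 Gy, -0.44 ± 0.15 under INDO and -0.40 ± 0.16 after 6 Gy + INDO, each past the test. The Col5a1 and Col5a3 calls under INDO were lost in 3 and 5 of 56 alternatives and those after 6 Gy + INDO in 5 and 6 of 55, among them housekeeping scaling and leaving out day 7. The Col5a2 calls over the course were lost without day 7, under INDO also without day 3 or with housekeeping scaling, and after 6 Gy + INDO also with housekeeping scaling or without the tumors high in receptor reads. Col5a2 starts 191744 bases from Col3a1 on the opposite strand of chromosome 1.

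The rarer fibril chains differed among themselves. Col11a1, a type XI chain, averaged 3.44 ± 2.46 CPM after 6 Gy, 3.05 ± 1.26 CPM under INDO and 1.98 ± 2.30 CPM after 6 Gy + INDO, against 23.2 ± 23.3 CPM in controls on day 7 and fell in each treatment (-2.77 ± 0.75 after 6 Gy, -2.89 ± 0.76 under INDO and -3.53 ± 0.79 after 6 Gy + INDO). Col24a1 was lower over the course after 6 Gy (-0.79 ± 0.22, adjusted p = 0.0062, lost without day 7). Its value under INDO was -0.54 ± 0.22 (adjusted p = 0.048), and that call was lost in 35 of 56 alternatives, DESeq2 and RLE factors included. Col27a1 was lower after 6 Gy (-0.39 ± 0.11, adjusted p = 0.0093), a call lost with housekeeping scaling and without day 1, 3 or 7. On day 1 Col11a2 had 0.64 ± 0.21 (adjusted p = 0.049) under INDO, a call that held in 3 of 16 alternatives, and 0.70 ± 0.21 (adjusted p = 0.021) after 6 Gy + INDO, a call lost in 5 of 16.

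Col2a1, the type II chain known from cartilage, was the fibrillar chain that rose over the course, after 6 Gy (0.57 ± 0.19, adjusted p = 0.026) and after 6 Gy + INDO (1.37 ± 0.20, adjusted p = 4.0e-08), with 0.03 ± 0.22 (adjusted p = 1) under INDO. Its level was close to the floor of these libraries, with a mean of 0.314 CPM. On day 1, Col2a1 had 0.443, 0.291, 0.491, 0.255 and 0.324 CPM in 6 Gy tumors, 0.370, 0.451, 0.321, 0.288 and 0.637 CPM in INDO tumors and 0.809, 0.666, 0.770, 0.757 and 0.522 CPM in 6 Gy + INDO tumors, against 0.298, 0.249, 0.242 and 0.146 CPM in control tumors. All 6 Gy + INDO tumors of that day lay above the highest control. The call after 6 Gy was lost without day 1, 7 or 23 and in 2 of the runs that left out 1 tumor. The 10 cartilage and bone markers summed to 28.8 to 80.9 CPM after 6 Gy, 46.3 to 84.8 CPM under INDO and 68.7 to 144 CPM after 6 Gy + INDO, against 15.4 to 33.9 CPM in controls on day 1, and their part in the result was not tested. In that sum Dmp1 (median 54.95 CPM over the 94 tumors) and Ibsp (5.26 CPM), both of bone matrix, were the highest, and Dmp1 rose on day 1 by 1.10 ± 0.30 after 6 Gy, 1.60 ± 0.31 under INDO and 2.20 ± 0.32 after 6 Gy + INDO. The cartilage genes Acan, Comp, Chad, Matn3 and Cnmd had medians of at most 0.295 CPM. Over the course Comp fell in each treatment (-2.11 ± 0.32 after 6 Gy, -1.35 ± 0.31 under INDO and -1.30 ± 0.32 after 6 Gy + INDO) and Acan fell under INDO (-2.02 ± 0.72, adjusted p = 0.023), opposite in direction to the Col2a1 calls. In at least 1 tumor 7 of these 10 were at 0, Acan in 22 tumors.

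**Figure D3:**
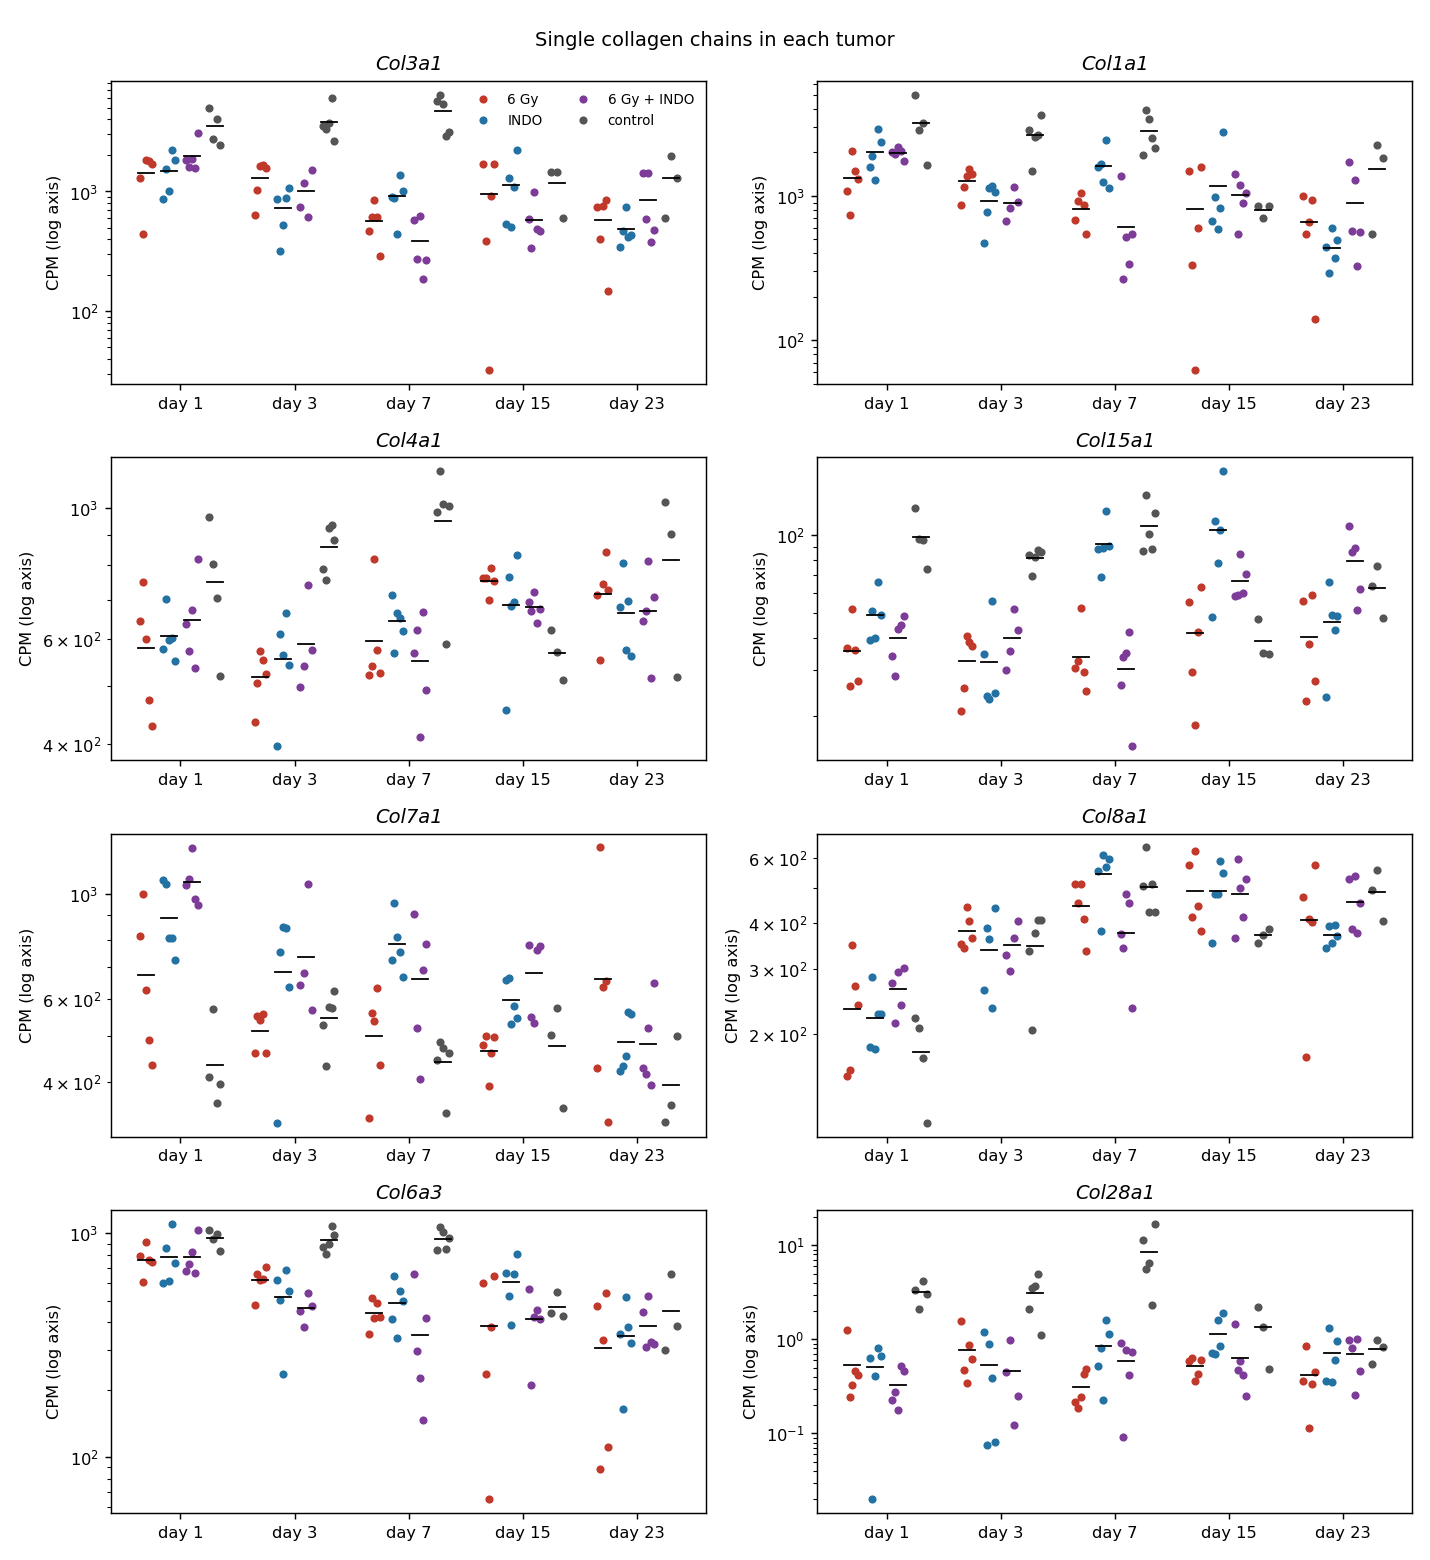
CPM of 8 collagen chains in each tumor (points, log axis) by day and treatment, with a line at the group mean. Control means are the highest for Col3a1 on days 1, 3 and 7, and the lowest for Col7a1 on day 1; 1 INDO tumor of day 1 with no Col28a1 count is drawn at the lower edge of its panel.

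Col4a1 and Col4a2, the chains of the common type IV network, are encoded head to head on chromosome 8, with starts 21 bases apart and overlapping antisense exons. The sources used here do not say whether counting used the strand, so reads near their shared start may have gone to either. On day 7, Col4a1 had 522, 541, 819, 576 and 527 CPM in 6 Gy tumors, 713, 569.7, 666, 652 and 619 CPM in INDO tumors and 569.5, 621, 411, 668 and 493 CPM in 6 Gy + INDO tumors, against 983, 1152, 1014, 590.3 and 1006 CPM in control tumors. The groups overlapped, since 1 control lay at 590.3 CPM. The log2 fold changes were -0.67 ± 0.17 (adjusted p = 0.0097) after 6 Gy, -0.50 ± 0.17 (adjusted p = 0.037) under INDO and -0.70 ± 0.17 (adjusted p = 0.0031) after 6 Gy + INDO, and over the course Col4a1 had -0.31 ± 0.08 after 6 Gy, -0.30 ± 0.08 under INDO and -0.31 ± 0.08 after 6 Gy + INDO, all past the test. The INDO call of day 7 was lost in 11 of 17 alternatives, and the calls over the course were lost without day 7. With housekeeping scaling the value of Col4a1 after 6 Gy + INDO over the course was 0.0033 (edgeR, adjusted p = 0.9999).

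Col4a2 was called lower only after 6 Gy, at -0.33 ± 0.08 (adjusted p = 0.0012) over the course, -0.78 ± 0.16 (adjusted p = 0.0086) on day 3 and -0.68 ± 0.17 (adjusted p = 0.011) on day 7. The call over the course was lost without day 3 or day 7. Its values after 6 Gy + INDO were -0.14 ± 0.19, -0.26 ± 0.17 and -0.35 ± 0.17 on days 1, 3 and 7, none past the test. On day 3 Col4a2 had 249, 244, 262, 272 and 248 CPM in 6 Gy tumors, 185, 363, 391, 399 and 293 CPM in INDO tumors and 311, 349, 478 and 289.5 CPM in 6 Gy + INDO tumors, against 461, 389, 463, 428 and 449 CPM in control tumors, and the 6 Gy tumors all lay below the lowest control. On day 15 its order turned round: the means were 394 ± 10.2 CPM after 6 Gy, 394 ± 94.4 CPM under INDO and 425 ± 59.6 CPM after 6 Gy + INDO, against 304 ± 45.3 CPM in controls, without a call.

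The chains Col4a5 and Col4a6, which are known from the basement membranes of epithelia and lie head to head on the X chromosome, were higher on day 1. Col4a5 on day 1 had 19.7, 32.4, 27.4, 24.2 and 18.9 CPM in 6 Gy tumors, 17.1, 19.9, 24.6, 20.2 and 15.6 CPM in INDO tumors and 24.1, 23.2, 18.9, 20.8 and 27.2 CPM in 6 Gy + INDO tumors, against 12.0, 11.8, 13.4 and 12.3 CPM in control tumors, so that all treated tumors exceeded all controls. The log2 fold changes of day 1 were 0.99 ± 0.16 (adjusted p = 0.00029) after 6 Gy, 0.68 ± 0.15 (adjusted p = 0.0061) under INDO and 0.89 ± 0.16 (adjusted p = 0.00046) after 6 Gy + INDO. Over the course Col4a5 rose after 6 Gy (0.69 ± 0.15, adjusted p = 0.00019) and 6 Gy + INDO (0.63 ± 0.15, adjusted p = 0.00024), and was 0.23 ± 0.14 (adjusted p = 0.23) under INDO. Col4a6 rose on day 1 in each treatment (0.97 ± 0.27 after 6 Gy, 1.36 ± 0.28 under INDO and 1.39 ± 0.28 after 6 Gy + INDO), beside a control mean of 0.385 CPM, and the 6 Gy call was lost in 5 of 16 alternatives. On day 23 the order of means turned round for both chains, without a call. Col4a5 then averaged 16.5 CPM after 6 Gy and 14.9 CPM after 6 Gy + INDO, against 21.2 CPM in controls. Col4a6 averaged 1.82 CPM after 6 Gy and 1.90 CPM under INDO, against 2.92 CPM in controls. Col4a4 was higher over the course under INDO (0.36 ± 0.14, adjusted p = 0.034) and after 6 Gy + INDO (0.57 ± 0.14, adjusted p = 0.00044), at a mean of 1.57 CPM, the INDO call being lost in 12 of 56 alternatives, while Col4a3 passed in no comparison with control.

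Type XV and XVIII chains carry glycosaminoglycans at the basement membrane zone and yield fragments that are known to restrain vessel growth. Col15a1 on day 7 had 30.54, 32.62, 52.08, 29.48 and 25.02 CPM in 6 Gy tumors, 88.7, 68.9, 88.9, 123 and 90.7 CPM in INDO tumors and 26.3, 33.8, 35, 42.2 and 15.2 CPM in 6 Gy + INDO tumors, against 86.7, 142, 101, 88.1 and 122 CPM in control tumors. The 6 Gy and 6 Gy + INDO tumors lay well below the controls and the INDO tumors overlapped them. The log2 fold changes were -1.67 ± 0.23 (adjusted p = 0.00013) after 6 Gy, -0.17 ± 0.23 (adjusted p = 0.61) under INDO and -1.74 ± 0.24 (adjusted p = 4.7e-05) after 6 Gy + INDO. Over the course they were -0.9998 ± 0.13 (adjusted p = 6.5e-09) after 6 Gy, -0.32 ± 0.13 (adjusted p = 0.048) under INDO and -0.61 ± 0.13 (adjusted p = 8.7e-05) after 6 Gy + INDO. The INDO call was lost with DESeq2, RLE factors, housekeeping scaling or no filter, without day 1, 3, 7 or 23, without the tumors high in receptor reads and in 28 of the runs that left out 1 tumor, with values between -0.76 and -0.04 over all alternatives. On day 15 the Col15a1 means were 41.7 ± 18.2 CPM after 6 Gy, 104 ± 47.8 CPM under INDO and 66.3 ± 11.4 CPM after 6 Gy + INDO, against 39.1 ± 7.27 CPM in controls, higher in the treated groups without passing the test.

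Col18a1 rose on day 1 after 6 Gy (0.38 ± 0.13, adjusted p = 0.047) and after 6 Gy + INDO (0.59 ± 0.13, adjusted p = 0.0025), where it had 428, 412, 527, 447 and 408 CPM in 6 Gy tumors, 375, 429.6, 467, 407 and 434 CPM in INDO tumors and 615, 479, 526, 444 and 503 CPM in 6 Gy + INDO tumors, against 402, 384, 332 and 252 CPM in control tumors. The 6 Gy and 6 Gy + INDO tumors lay above all controls. The 6 Gy call was lost in 6 of the runs that left out 1 tumor, with RLE factors, housekeeping scaling or no filter, in 1 fit of all tumors and without the tumors high in receptor reads. Over the course Col18a1 was not called, at -0.01 ± 0.09 after 6 Gy, -0.21 ± 0.09 under INDO and -0.18 ± 0.09 after 6 Gy + INDO.

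Among the other chains, Col12a1, a FACIT chain that coats type I fibrils, had the highest level. Within days it was called against control on day 7 only, when it had 894, 1102, 1001, 1174 and 726 CPM in 6 Gy tumors, 673, 1125, 559.9, 817 and 932 CPM in INDO tumors and 1108, 797, 575, 347 and 688 CPM in 6 Gy + INDO tumors, against 3055, 1388, 1954, 1803 and 1872 CPM in control tumors. No treated tumor reached the lowest control, and the log2 fold changes were -1.05 ± 0.27 (adjusted p = 0.011) after 6 Gy, -1.23 ± 0.27 (adjusted p = 0.005) under INDO and -1.44 ± 0.27 (adjusted p = 0.00059) after 6 Gy + INDO. On day 1 they were 0.11 ± 0.15 after 6 Gy, -0.01 ± 0.15 under INDO and -0.08 ± 0.15 after 6 Gy + INDO, none past the test. Over the course Col12a1 was called lower under INDO (-0.49 ± 0.16, adjusted p = 0.011) and after 6 Gy + INDO (-0.58 ± 0.16, adjusted p = 0.0014), with -0.36 ± 0.16 (adjusted p = 0.089) after 6 Gy. Both calls were lost with housekeeping scaling and without day 7. The FACIT chain Col14a1 had -1.54 ± 0.45 after 6 Gy, -1.48 ± 0.45 under INDO and -0.84 ± 0.45 after 6 Gy + INDO on day 1, of which the 6 Gy and INDO values passed the test. These calls of day 1 were lost in 5 (6 Gy) and 6 (INDO) of the 9 runs that left out 1 tumor. Col14a1 had -3.02 ± 0.50 after 6 Gy, -2.21 ± 0.48 under INDO and -3.31 ± 0.51 after 6 Gy + INDO on day 7, all past the test. Its level on day 7 averaged 17.0 ± 8.57 CPM after 6 Gy, 28.4 ± 7.92 CPM under INDO and 13.2 ± 9.80 CPM after 6 Gy + INDO, against 138 ± 60.0 CPM in controls. Col16a1 rose on day 1 under INDO (0.42 ± 0.12, adjusted p = 0.027, lost in 5 of 16 alternatives) and after 6 Gy + INDO (0.70 ± 0.12, adjusted p = 0.00044, lost in none of 16). Col9a3, which shares sequence with the antisense gene Tcfl5, was higher over the course under INDO (0.41 ± 0.13, adjusted p = 0.011) and after 6 Gy + INDO (0.46 ± 0.13, adjusted p = 0.0027).

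Type VI chains form beaded filaments around cells. Col6a3 on day 7 had 356, 515, 418, 490.4 and 425 CPM in 6 Gy tumors, 415, 645, 341, 552 and 499 CPM in INDO tumors and 661, 299, 227, 146 and 419 CPM in 6 Gy + INDO tumors, against 841, 1069, 1012, 849.5 and 954 CPM in control tumors, with all treated tumors below all controls. Its log2 fold changes were -1.10 ± 0.28 (adjusted p = 0.011) after 6 Gy, -0.88 ± 0.28 (adjusted p = 0.03) under INDO and -1.34 ± 0.28 (adjusted p = 0.0013) after 6 Gy + INDO. Over the course Col6a3 had -0.57 ± 0.16 after 6 Gy, -0.41 ± 0.16 under INDO and -0.62 ± 0.16 after 6 Gy + INDO and Col6a2 -0.81 ± 0.14 after 6 Gy, -0.50 ± 0.14 under INDO and -0.47 ± 0.14 after 6 Gy + INDO, all called, whereas Col6a1 had -0.44 ± 0.10 after 6 Gy, -0.11 ± 0.10 under INDO and -0.09 ± 0.11 after 6 Gy + INDO, with a call after 6 Gy alone. The Col6a3 calls over the course were lost without day 7, and its INDO calls were lost in 9 of 56 alternatives over the course and in 7 of 17 on day 7. The Col6a2 calls under INDO and after 6 Gy + INDO were lost without day 7 as well.

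The alternative type VI chains Col6a5 and Col6a6 showed larger folds at lower levels. Col6a5 on day 1 had 7.05, 3.79, 1.32, 1.60 and 1.79 CPM in 6 Gy tumors, 2.19, 0.852, 1.91, 2.92 and 2.56 CPM in INDO tumors and 1.23, 2.00, 1.19, 1.88 and 0.849 CPM in 6 Gy + INDO tumors, against 17.6, 13.0, 15.2 and 84.6 CPM in control tumors, and no treated tumor reached the lowest control. Its log2 fold changes were -3.40 ± 0.59 (adjusted p = 0.00071) after 6 Gy, -3.93 ± 0.60 (adjusted p = 0.00024) under INDO and -4.51 ± 0.62 (adjusted p = 5.1e-05) after 6 Gy + INDO. Col6a6 on day 1 had -2.73 ± 0.56 after 6 Gy, -2.38 ± 0.56 under INDO and -3.07 ± 0.57 after 6 Gy + INDO, all past the test. In controls Col6a5 averaged 32.6, 23.3, 13.3, 1.31 and 0.890 CPM on days 1, 3, 7, 15 and 23. The 8 adipocyte markers summed to 5.17 to 24.7 CPM after 6 Gy, 3.00 to 64.3 CPM under INDO and 4.01 to 20 CPM after 6 Gy + INDO, against 34.0 to 129 CPM in controls on day 1, with Adipoq at 0 in 13 tumors, and over the course 6 fell after 6 Gy, 6 under INDO and 7 after 6 Gy + INDO (10.6%, 17.4% and 23.2% of all genes fell). After subtracting the mean of each treatment and day, Col6a5 had r = 0.221 with summed adipocyte, 0.379 with fibroblast and 0.296 with skin markers. For Col6a6 these values were 0.391, 0.283 and 0.159. The part of these cell types in the result was not tested.

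Col28a1, a rare chain related to the type VI family that is known from nerve in mice, had the smallest p of the other chains in all 3 treatments. On day 7 it had 0.214, 0.186, 0.242, 0.426 and 0.486 CPM in 6 Gy tumors, 0.527, 0.803, 0.228, 1.60 and 1.13 CPM in INDO tumors and 0.923, 0.0912, 0.770, 0.414 and 0.730 CPM in 6 Gy + INDO tumors, against 11.5, 5.63, 6.55, 2.29 and 16.9 CPM in control tumors, with no overlap between treated tumors and controls. Its log2 fold changes of that day were -4.78 ± 0.63 (adjusted p = 8.2e-05) after 6 Gy, -3.25 ± 0.58 (adjusted p = 0.0016) under INDO and -3.78 ± 0.60 (adjusted p = 0.00018) after 6 Gy + INDO, and over the course -2.32 ± 0.28 (adjusted p = 8.9e-10) after 6 Gy, -1.76 ± 0.28 (adjusted p = 1.1e-06) under INDO and -2.23 ± 0.29 (adjusted p = 2.5e-09) after 6 Gy + INDO. On day 23 its groups overlapped, at 0.421 ± 0.273 CPM after 6 Gy, 0.723 ± 0.422 CPM under INDO and 0.706 ± 0.333 CPM after 6 Gy + INDO, against 0.784 ± 0.222 CPM in controls. Of 6 Schwann cell markers tested, 1 fell after 6 Gy, 1 rose under INDO, and 1 rose and 1 fell after 6 Gy + INDO over the course. Of all genes, 10.6% fell after 6 Gy, 16.8% rose under INDO, and 29.6% rose and 23.2% fell after 6 Gy + INDO.

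Col7a1, the single chain of the anchoring fibrils that tie epithelia to the tissue below, rose. On day 1 it had 815, 1001, 626, 491 and 435 CPM in 6 Gy tumors, 1070.0, 1050.0, 806, 806 and 724 CPM in INDO tumors and 1043, 1075, 1251, 976 and 948 CPM in 6 Gy + INDO tumors, against 409, 569.9, 361 and 396 CPM in control tumors. All INDO and 6 Gy + INDO tumors lay above the highest control, and 6 Gy tumors overlapped the controls. On day 1 its log2 fold changes were 0.64 ± 0.21 (adjusted p = 0.046) after 6 Gy, 1.07 ± 0.21 (adjusted p = 0.0025) under INDO and 1.29 ± 0.22 (adjusted p = 0.0003) after 6 Gy + INDO, and over the course 0.29 ± 0.10 (adjusted p = 0.04) after 6 Gy, 0.56 ± 0.10 (adjusted p = 2.6e-05) under INDO and 0.62 ± 0.11 (adjusted p = 1.8e-06) after 6 Gy + INDO. The 6 Gy call of day 1 was lost in 10 of 16 alternatives. The 6 Gy call over the course was lost without a filter, without day 1, 7 or 23 and in 15 of the runs that left out 1 tumor, with values between 0.17 and 0.39 over all alternatives.

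Col8a1, a short chain of vessel walls and other tissues, passed the test against control on no day, with 0.10 ± 0.10 after 6 Gy, 0.08 ± 0.10 under INDO and 0.09 ± 0.10 after 6 Gy + INDO over the course. On day 7 it had 512, 453, 512, 411 and 336 CPM in 6 Gy tumors, 554, 381, 612, 568 and 597 CPM in INDO tumors and 374, 343, 479, 453 and 236 CPM in 6 Gy + INDO tumors, against 504, 642, 430.2, 511 and 429 CPM in control tumors, and the groups overlapped. Col8a2, its partner chain, was lower over the course (-0.95 ± 0.23 after 6 Gy, -0.71 ± 0.23 under INDO and -0.73 ± 0.24 after 6 Gy + INDO, all called, and all lost without day 7) at a mean of 1.45 CPM. The membrane chain Col23a1 was also lower (-0.87 ± 0.24 after 6 Gy, -0.89 ± 0.24 under INDO and -1.04 ± 0.25 after 6 Gy + INDO, all called). Col17a1, a membrane chain of the hemidesmosomes of skin, ranged from 0.881 to 127 CPM and scattered within groups. On day 7 it had 2.75, 2.83, 2.58, 64.2 and 66.6 CPM in 6 Gy tumors, 1.30, 17.9, 2.14, 1.61 and 7.68 CPM in INDO tumors and 69.7, 3.22, 2.49, 2.28 and 116 CPM in 6 Gy + INDO tumors, against 8.26, 1.47, 3.39, 1.73 and 2.72 CPM in control tumors, and its log2 fold change after 6 Gy + INDO was 3.57 ± 1.27 (adjusted p = 0.028). This call was lost in 7 of 17 alternatives, among them the replicate block and leaving out the tumors high in receptor reads. The 8 skin markers summed to 71.1 to 3733 CPM in that group and to 147 to 236 CPM in the controls of day 7. Krt1 was at 0 in 30 tumors. After subtracting the mean of each treatment and day, Col17a1 had r = 0.932 with summed skin and 0.383 with summed fibroblast markers (94 tumors). For Col23a1 these values were 0.719 and 0.591. The part of skin in the Col17a1 and Col23a1 values was not tested.

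Whether a treatment differed from control by the same amount on the 5 days was tested in the fit of all 94 tumors. The difference from control varied between days for 6 of 43 chains after 6 Gy (3.82% of all genes), for 4 under INDO (2.66%) and for 25 after 6 Gy + INDO (33.6%). The last count was made up of 8 fibrillar chains, all 8 basement membrane chains and 9 others, and it dropped to 9 without the 11 tumors high in receptor reads. Without the same tumors, the count for 6 Gy + INDO within day 3 was 0. Col15a1 varied in all 3 treatments (edgeR, adjusted p = 0.026 after 6 Gy, 0.00042 under INDO and 2.9e-05 after 6 Gy + INDO). For Col3a1 the adjusted p was 0.0036 after 6 Gy + INDO, where its log2 fold changes were -0.82 ± 0.35, -1.87 ± 0.38, -3.52 ± 0.40, -1.06 ± 0.74 and -0.57 ± 0.51 on days 1, 3, 7, 15 and 23 in the fits of single days.

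The study added INDO to irradiation, and the combination was therefore set beside each treatment alone. When compared with 6 Gy over the course, 13 of 43 chains were higher and none lower after 6 Gy + INDO (25.9% of all genes were higher and 19.8% lower). The median log2 fold change was 0.22 over the tested chains and 0.19 over all genes tested. At an unadjusted p under 0.05, 14 were higher and 1 lower, and DESeq2 called 15 higher and none lower. The count was 22 with housekeeping scaling and 8 without day 15. The chains were of several classes, among them Col15a1 (0.39 ± 0.12, adjusted p = 0.0068), Col7a1 (0.33 ± 0.10, adjusted p = 0.0038), Col6a1 (0.35 ± 0.10, adjusted p = 0.0023), Col4a2 (0.24 ± 0.08, adjusted p = 0.0075) and Col2a1 (0.80 ± 0.18, adjusted p = 0.00015), whereas the type I and III chains were not called (Col3a1 -0.11 ± 0.21, Col1a1 0.08 ± 0.20, Col1a2 0.02 ± 0.17).

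When compared with INDO, 2 chains were higher and 2 lower after 6 Gy + INDO (7.21% and 3.54% of all genes). Col2a1 (1.34 ± 0.18, adjusted p = 2.2e-06) and Col4a5 (0.41 ± 0.14, adjusted p = 0.04) were higher, and Col6a5 (-1.50 ± 0.33, adjusted p = 0.0031) and Col6a4 (-0.84 ± 0.29, adjusted p = 0.0496) were lower. These 4 calls were chosen for print after their values were seen. The Col4a5 call was lost in 35 of 60 alternatives, the Col6a4 call in 37 of 60 and the Col6a5 call in 2 of 60. Leaving out 1 tumor brought the count to between 2 and 6, with 2 for 17 of the tumors of either group, and it was 1 without the tumors high in receptor reads. The lowest of these counts kept 1 chain in each direction.

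The interaction asks whether the combination differs from the sum of both single effects on the log2 scale, and a positive value stands for a combined effect less negative, or more positive, than that sum. It was positive for 16 of 43 chains and negative for none (5.65% and 1.92% of all genes). At an unadjusted p under 0.05, 24 were positive and none negative, and DESeq2 called 20 and none. The 16 were 7 of 11 fibrillar, 3 of 8 basement membrane and 6 of 24 other chains. For Col3a1 it was 1.37 ± 0.31 (adjusted p = 0.0023): against control, 6 Gy stood at -1.48 ± 0.23, INDO at -1.49 ± 0.23 and the combination at -1.59 ± 0.23. Col1a1 (0.93 ± 0.29, adjusted p = 0.032), Col1a2 (0.92 ± 0.25, adjusted p = 0.013), Col14a1 (1.31 ± 0.30, adjusted p = 0.0028), Col28a1 (1.85 ± 0.39, adjusted p = 0.0011) and Col15a1 (0.71 ± 0.18, adjusted p = 0.0065) had the same sign. Col22a1 had 2.49 ± 0.80 (adjusted p = 0.038) at a mean of 0.248 CPM, a call lost in 19 of 105 alternatives, with values between 0.16 and 3.29. The calls of Col3a1, Col1a1, Col1a2, Col14a1 and Col15a1 were lost without day 3, and that of Col28a1 without day 7 and without the tumors high in receptor reads. The count was 10 without 6 Gy + INDO tumor 1 or control 2 of day 23 or without control 1 of day 15, and 2 without day 3, 6 without day 7, 7 without day 23 and 8 without day 1.

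**Figure D4:**
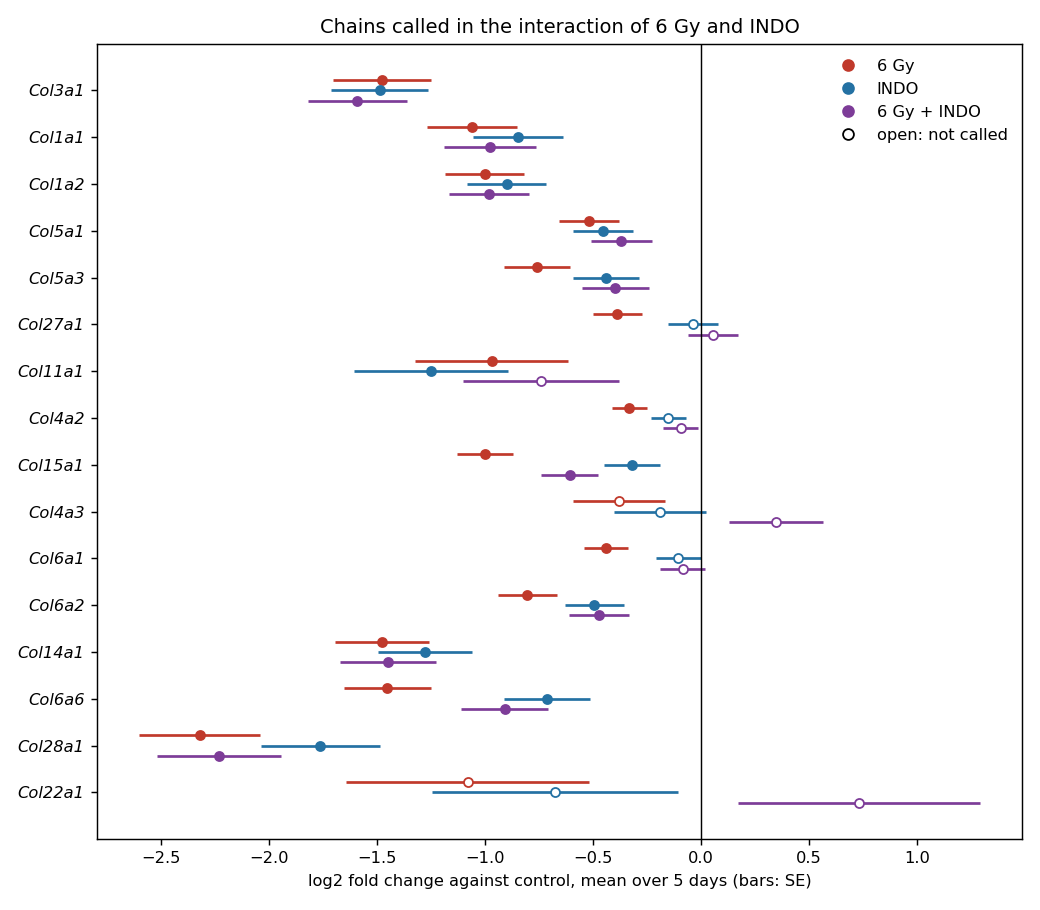
Log2 fold change over the course (points, with bars of 1 SE) of the 16 collagen chains with an interaction past the test, for 6 Gy, INDO and 6 Gy + INDO against control. Open points did not pass the test against control; for Col3a1 the points lie at -1.48 (6 Gy), -1.49 (INDO) and -1.59 (6 Gy + INDO).

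Between day 23 and day 1, 4 of 43 chains rose and 10 fell after 6 Gy (10.8% and 8.89% of all genes), 1 rose and 15 fell under INDO (12% and 9.15%), 6 rose and 10 fell after 6 Gy + INDO (21.2% and 9.06%), and 2 rose and 9 fell in controls (11.7% and 9.9%). Col8a1 rose under every treatment and in controls, with 0.80 ± 0.20 after 6 Gy, 0.75 ± 0.20 under INDO, 0.78 ± 0.20 after 6 Gy + INDO and 1.43 ± 0.24 in controls (edgeR, adjusted p from 4.2e-06 to 0.004). Its mean was 408 ± 148 CPM on day 23 against 234 ± 81.1 CPM on day 1 after 6 Gy, and 485 ± 76.0 CPM against 179 ± 47.7 CPM in controls. Col6a1, Col6a2 and Col6a3 of the 6 type VI chains were called lower in all 4 groups. Col6a3 had -1.30 ± 0.34 after 6 Gy, -1.16 ± 0.33 under INDO, -1.03 ± 0.33 after 6 Gy + INDO and -1.08 ± 0.41 in controls, and its control call was lost in 8 of 13 alternatives. Col2a1 fell in all 4 as well. Col12a1 was called lower in the 3 treated groups (-0.98 ± 0.33 after 6 Gy, -1.02 ± 0.33 under INDO and -0.84 ± 0.33 after 6 Gy + INDO) and had -0.57 ± 0.40 (adjusted p = 0.34) in controls, a difference between groups that was not tested. Its 6 Gy + INDO call was lost in 8 of 16 alternatives.

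Other chains moved with time in some groups only, and the difference between groups was not tested. Col18a1 fell after 6 Gy (-0.64 ± 0.18, adjusted p = 0.0063), under INDO (-0.62 ± 0.18, adjusted p = 0.0082) and after 6 Gy + INDO (-1.43 ± 0.18, adjusted p = 1.4e-08), with -0.13 ± 0.22 (adjusted p = 0.76) in controls. Col7a1 fell under INDO (-0.88 ± 0.22, adjusted p = 0.0016) and after 6 Gy + INDO (-1.14 ± 0.22, adjusted p = 6.2e-05), with -0.03 ± 0.21 (adjusted p = 0.97) after 6 Gy and -0.14 ± 0.26 (adjusted p = 0.79) in controls. Col15a1 rose after 6 Gy + INDO (0.99 ± 0.27, adjusted p = 0.0056), with -0.66 ± 0.33 (adjusted p = 0.16) in controls. Col4a6 rose after 6 Gy (1.25 ± 0.41, adjusted p = 0.02) and in controls (2.90 ± 0.49, adjusted p = 5.7e-06), and Col6a5 fell after 6 Gy (-3.38 ± 0.81, adjusted p = 0.0012) and in controls (-5.19 ± 1.05, adjusted p = 0.0001). Day 23 had 3 controls, and the control count was 4 without control 1 of day 23, 7 without control 3 of day 23 or of day 1, and 6 without control 1 of day 1. The 6 Gy + INDO count was 10 without tumor 2 or 4 of day 23, which are high in receptor reads, and 8 without all 11 such tumors. With housekeeping scaling, 6 chains rose and 7 fell after 6 Gy + INDO.

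**Figure D5:**
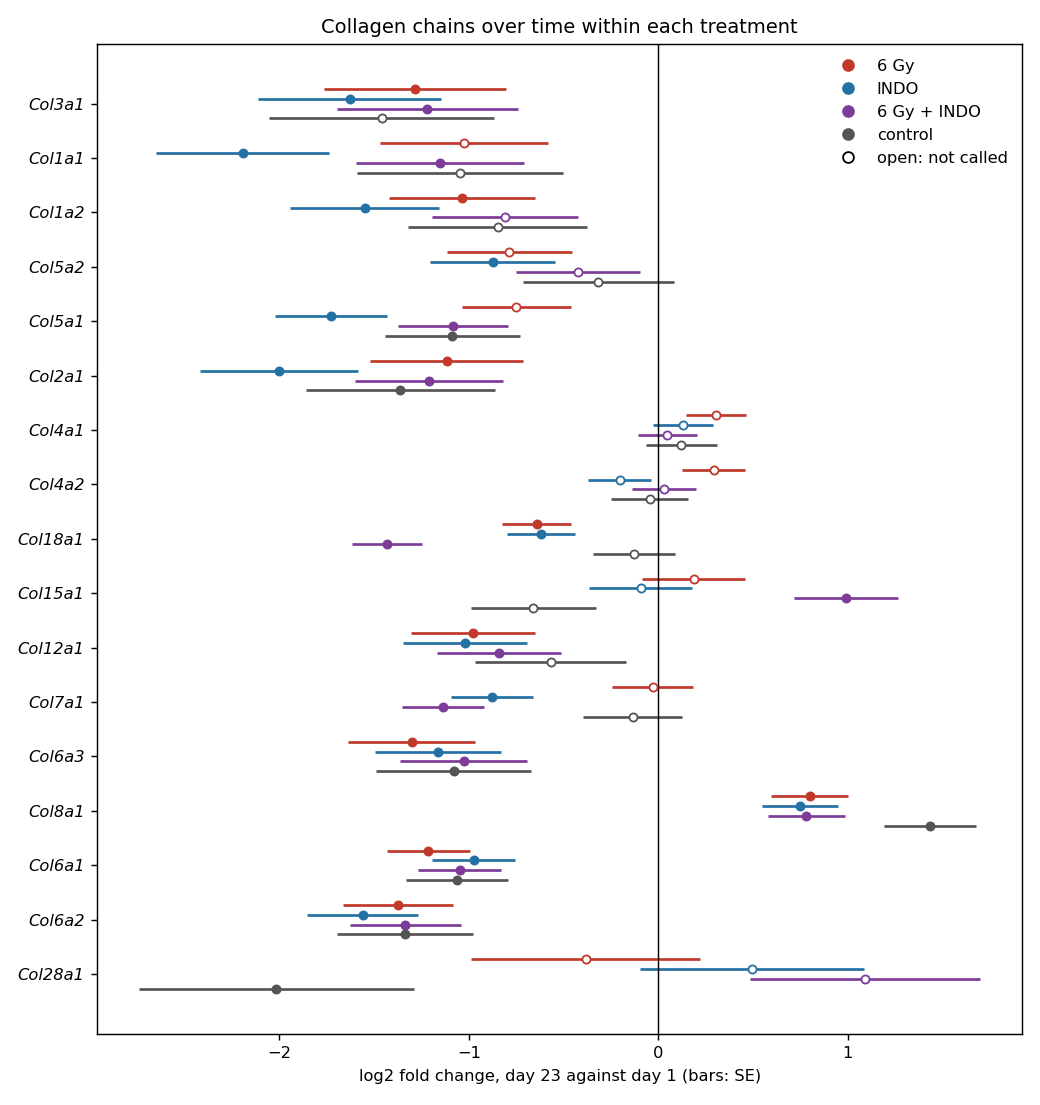
Log2 fold change of day 23 against day 1 (points, with bars of 1 SE) within each treatment and in controls for the named collagen chains and Col5a1, Col6a1 and Col6a2. Col8a1 lies above 0, and Col6a1, Col6a2 and Col6a3 lie below 0, in all 4 groups.

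Genes that act on collagen were described from lists written with earlier results of these data known, with adjusted p over all genes. Of 23 genes for folding and modification of chains, 2 rose and 9 fell after 6 Gy, none rose and 19 fell under INDO, and 1 rose and 20 fell after 6 Gy + INDO over the course, beside the backgrounds given above. Serpinh1, the collagen chaperone, had -0.35 ± 0.09 after 6 Gy, -0.62 ± 0.09 under INDO and -0.60 ± 0.09 after 6 Gy + INDO on the log2 scale, P4hb, a subunit of prolyl 4-hydroxylase, -0.10 ± 0.08 after 6 Gy, -0.37 ± 0.08 under INDO and -0.55 ± 0.08 after 6 Gy + INDO, and Fkbp14, a prolyl isomerase, -0.40 ± 0.13 after 6 Gy, -0.86 ± 0.13 under INDO and -0.73 ± 0.13 after 6 Gy + INDO. All of these passed the test but P4hb after 6 Gy. The 4 housekeeping genes with the smallest p fell under INDO and 6 Gy + INDO too, and need not stand for all 14. Hprt had -0.06 after 6 Gy, -0.43 under INDO and -0.58 after 6 Gy + INDO. Gusb had -0.36, -0.29 and -0.40 in that order, Actb -0.22, -0.19 and -0.40, and Sdha -0.17, -0.14 and -0.26. All were called but Hprt after 6 Gy. Whether the falls of the folding genes hold with housekeeping scaling was not tested. Of 13 genes for propeptide cleavage and crosslinking, 6 fell after 6 Gy, 8 fell and 1 rose under INDO, and 8 fell and 1 rose after 6 Gy + INDO. Adamts2, a procollagen N-proteinase, had -0.74 ± 0.14 after 6 Gy, -0.79 ± 0.14 under INDO and -0.91 ± 0.14 after 6 Gy + INDO, Tll1, a procollagen C-proteinase of the tolloid family, -0.96 ± 0.14 after 6 Gy, -1.09 ± 0.14 under INDO and -0.98 ± 0.14 after 6 Gy + INDO, and Loxl1, a lysyl oxidase, -0.99 ± 0.17 after 6 Gy, -0.64 ± 0.17 under INDO and -0.67 ± 0.18 after 6 Gy + INDO, all called.

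Of 14 matrix proteins that bind fibrils, 10 fell after 6 Gy, 11 under INDO and 12 after 6 Gy + INDO over the course, and none was called higher. For this list and those below, the shares of all genes called lower were 10.6% after 6 Gy, 17.4% under INDO and 23.2% after 6 Gy + INDO. The shares called higher were 9.19%, 16.8% and 29.6% in that order. The small proteoglycans Lum and Dcn had -0.84 ± 0.21 after 6 Gy, -2.04 ± 0.21 under INDO and -1.64 ± 0.22 after 6 Gy + INDO and -1.40 ± 0.24 after 6 Gy, -1.94 ± 0.24 under INDO and -1.83 ± 0.25 after 6 Gy + INDO, all called. Of 10 collagen receptors, 3 fell and 1 rose after 6 Gy, 4 fell under INDO, and 4 fell and 1 rose after 6 Gy + INDO, with the fibroblast integrin chain Itga11 at -1.58 ± 0.17 after 6 Gy, -1.03 ± 0.17 under INDO and -1.18 ± 0.17 after 6 Gy + INDO, all called, and Itga10 higher after 6 Gy (0.69 ± 0.17) and 6 Gy + INDO (0.70 ± 0.17). Of 15 laminins and other basement membrane proteins, 5 fell and 1 rose after 6 Gy, 4 fell and 2 rose under INDO, and 5 fell and 2 rose after 6 Gy + INDO. Among them were the nidogen Nid1 at -0.67 ± 0.12 after 6 Gy, -0.66 ± 0.12 under INDO and -0.70 ± 0.12 after 6 Gy + INDO and the laminin chain Lama4 at -0.69 ± 0.11 after 6 Gy, -0.67 ± 0.11 under INDO and -0.73 ± 0.11 after 6 Gy + INDO, all called.

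Markers of stromal cells were chosen without any collagen gene, and most of them fell over the course, as most fibrillar chains did. Over the course, of 10 fibroblast markers 9 fell after 6 Gy, 8 under INDO and 10 after 6 Gy + INDO, of 9 pericyte and smooth muscle markers 9 fell after 6 Gy, 6 under INDO and 8 after 6 Gy + INDO, and of 10 endothelial markers 9 fell after 6 Gy, 10 under INDO and 10 after 6 Gy + INDO. Of all genes, 10.6% fell after 6 Gy, 17.4% under INDO and 23.2% after 6 Gy + INDO. Pdgfra, a receptor that marks fibroblasts, had -0.74 ± 0.10 after 6 Gy, -0.93 ± 0.10 under INDO and -1.02 ± 0.10 after 6 Gy + INDO, Pdgfrb of pericytes -0.80 ± 0.12 after 6 Gy, -0.48 ± 0.12 under INDO and -0.76 ± 0.12 after 6 Gy + INDO and Pecam1 of endothelium -0.75 ± 0.10 after 6 Gy, -0.74 ± 0.10 under INDO and -0.93 ± 0.10 after 6 Gy + INDO, all called. None of these markers rose. The summed fibroblast markers of day 7 ranged from 445 to 593 CPM after 6 Gy, 416 to 553 CPM under INDO and 294 to 644 CPM after 6 Gy + INDO, against 824 to 1014 CPM in controls, the pericyte markers from 138 to 275 CPM after 6 Gy, 263 to 443 CPM under INDO and 134 to 200.0 CPM after 6 Gy + INDO, against 580.1 to 969.9 CPM in controls, and the endothelial markers from 135 to 239.8 CPM after 6 Gy, 175 to 238 CPM under INDO and 114 to 174 CPM after 6 Gy + INDO, against 307 to 534 CPM in controls. In each of the 3 lists no treated tumor of day 7 reached the lowest control. The fibroblast sum was made up mostly of Gsn (median 337.5 CPM over the 94 tumors), followed by Pdgfra (62.75 CPM) and Thy1 (51.08 CPM). In the pericyte and smooth muscle sum, Acta2 (86.47 CPM), Tagln (61.14 CPM) and Pdgfrb (50.48 CPM) were the highest. Abcc9 (11.5 CPM) and Kcnj8 (2.22 CPM) added little to it. Among these 3 lists Clec3b alone was at 0 in any tumor, in 7 tumors. From tumor to tumor, sums were compared on log2(CPM + 0.5) after subtracting the mean of each treatment and day (94 tumors). The fibrillar sum had r = 0.227 with fibroblast, 0.826 with pericyte and smooth muscle and 0.474 with endothelial markers, without a test. Each marker sum follows mainly its highest genes, and which cells made the fibrillar chains was not tested.

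On day 15 the fibroblast sums overlapped, at 358 to 535 CPM after 6 Gy, 365 to 709.7 CPM under INDO and 349 to 512 CPM after 6 Gy + INDO, against 463 to 605 CPM in controls, as the fibrillar sums did. Of 8 macrophage markers 8 fell after 6 Gy, 4 under INDO and 6 after 6 Gy + INDO over the course, and their sum on day 1 ranged from 444 to 917 CPM after 6 Gy, 449 to 609 CPM under INDO and 447 to 583 CPM after 6 Gy + INDO, against 2088 to 2751 CPM in controls. Of 8 epithelial markers, none was called after 6 Gy, and 4 fell under INDO and 4 after 6 Gy + INDO, with sums between 1869.5 and 5010.0 CPM over the 94 tumors, and none was at 0 in any tumor. Of all genes, 10.6% fell after 6 Gy over the course, 17.4% under INDO and 23.2% after 6 Gy + INDO. Skeletal muscle markers summed to between 11.3 and 24126.1 CPM and varied within groups, with none of 8 called over the course. The part of each of these cell types in the collagen values was not tested.

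Variation from tumor to tumor was compared for 7 pairs of chains that share a protein or a locus. The correlation was taken on log2(CPM + 0.5) after subtracting the mean of each treatment and day (94 tumors, 7 pairs, permutation within groups). Col1a1 and Col1a2, on chromosomes 11 and 6, had r = 0.919 and rho = 0.858, with r = 0.888 without the 2 farthest tumors. Col3a1 and Col5a2 had r = 0.903 and rho = 0.903 (0.855 without the 2 farthest), and Col4a1 and Col4a2 had r = 0.83 and rho = 0.755 (0.806). Col6a1 and Col6a2 reached r = 0.777 and rho = 0.767 (0.77), Col4a5 and Col4a6, with starts 1309 bases apart, r = 0.771 and rho = 0.699 (0.724), and Col6a5 and Col6a6 r = 0.699 and rho = 0.599 (0.658). For these 6 pairs the permutation p was 1e-05, the smallest that 100000 permutations can give, and 1.17e-05 adjusted over the 7 pairs. Col4a3 and Col4a4, with starts 72 bases apart on opposite strands of chromosome 1, had the weakest relation, at r = 0.429 (permutation p = 0.00049, adjusted 0.00049) and rho = 0.408 (permutation p = 0.00042, adjusted 0.00042), and r = 0.374 without the 2 farthest tumors. Chains that share neither correlated as highly: r was 0.946 for Col1a2 and Col3a1, 0.943 for Col5a2 and Col1a2, and 0.886 for Col6a3 and Col12a1, given as descriptions over the same 94 tumors. Pairs with low counts carry more counting error than pairs with high counts.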

How the data were processed

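The authors made stranded total RNA libraries from 94 tumors and deposited 1 table of expected counts, estimated counts that need not be whole. The submitters' processing notes name cutadapt, STAR, Partek 11.0.24.0328 and the mm10 build. The counting tool and its strand setting are not given in the sources used here. Treatment, day and replicate number came from the sample labels, and 0 columns were left unmapped. Libraries held 20995830 to 109300093 counts. No 2 libraries of a group agreed within sampling noise (chi-square per degree of freedom of at least 22.6). The p-values measure the spread between these tumors. The study's own gene-specific analysis in Partek could not be run here.

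Counts were rounded, filtered with filterByExpr, scaled with TMM and tested with the quasi-likelihood method of edgeR 4.0.16 (trended dispersion) in R 4.3.3. DESeq2 1.42.0 was run as an alternative, and limma 3.58.1 was loaded but gave no test of its own. The 4 groups of a day entered 1 fit. Means over days, the interaction, day 23 against day 1 and variation between days came from 1 fit of all 94 tumors. P-values were adjusted with Benjamini-Hochberg over all genes tested, with calls at 0.05. Standard errors are the absolute log2 fold change divided by the root of the F statistic. CPM use TMM library sizes, and correlations use log2(CPM + 0.5). The tests were tested on simulated data.

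Members and lists were chosen with earlier results of these data known. Values per tumor are given for the 4 chains of each class with the highest mean CPM and for the chain of each class with the smallest p in each treatment over the course; other chains are named by range and count, and some of them were named after their values were seen. From each other list at most 4 genes with the smallest p are named. Alternatives were RLE factors, scaling to 14 housekeeping genes, DESeq2, no filter, a replicate block, 1 fit of all tumors, and leaving out each tumor, each day or the 11 tumors over 300 CPM of receptor reads. Gene positions and overlaps are those of the GENCODE vM21 mouse annotation (GRCm38, mm10), and promoter windows, found for 35 of 44 genes, those of RefSeq (GRCm38.p6). Col21a1 was not analysed here.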

Additional observations from a re-analysis of the deposited data

Results flagged for a closer look

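Single tumors stood apart from the other tumors of their group in 15 of 306 combinations of a group with a class sum or a named chain (Dixon's test, groups of 4 or 5 tumors), where chance alone gives about 1 in 20. Of these, 6 Gy tumor 3 of day 7 was the highest of its group for the summed basement membrane chains (1719 CPM), Col4a1 (819 CPM) and Col15a1 (52.1 CPM). The summed other chains were lowest in INDO tumor 3 of day 3 (2364 CPM). Of the type I and III chains, Col3a1 was highest in 6 Gy + INDO tumor 5 of day 1 (3067 CPM), and Col1a1 in INDO tumor 5 of day 15 (2783 CPM) and in 6 Gy + INDO tumor 1 of day 7 (1376 CPM). Col4a2 was lowest in 6 Gy tumor 3 of day 15 (376 CPM) and highest in 6 Gy tumor 4 of day 23 (480.2 CPM). Col18a1 was highest in INDO tumor 1 of day 23 (489 CPM), and Col12a1 in 6 Gy + INDO tumor 3 of day 23 (846 CPM). Col8a1 was lowest in INDO tumor 2 of day 7 (381 CPM), and Col7a1 in control tumor 4 of day 7 (344 CPM). Col28a1 was highest in 6 Gy tumor 1 of day 1 (1.25 CPM) and in 6 Gy + INDO tumor 1 of day 15 (1.45 CPM).

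For 10 of the 14 named chains the difference between 6 Gy + INDO and control varied between the 5 days. This came from a test of that variation itself (edgeR, adjusted p over all genes). The share of all genes called was 33.6% for 6 Gy + INDO, 3.82% for 6 Gy and 2.66% for INDO. The 6 Gy + INDO count over all collagen chains dropped without the tumors high in receptor reads, as given above. The adjusted p was 2.9e-05 for Col15a1, 0.0033 for Col18a1, 0.0036 for Col3a1, 0.0055 for Col28a1, 0.0073 for Col4a1, 0.0078 for Col1a2, 0.011 for Col5a2, 0.024 for Col1a1, 0.039 for Col4a2 and 0.043 for Col8a1. After 6 Gy it was 0.012 for Col4a1, 0.016 for Col4a2, 0.024 for Col28a1 and 0.026 for Col15a1. Under INDO it was 0.00042 for Col15a1 and 0.043 for Col28a1.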

How the results depend on the processing

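Counts of collagen chains called that moved by over 1.5 times, or whose balance turned, were as follows. Scaling to housekeeping genes gave 22 chains for 6 Gy + INDO against 6 Gy, 6 for INDO on day 3, 15 for 6 Gy + INDO on day 3 (9 higher, 6 lower), 26 for 6 Gy + INDO over the course (17 higher, 9 lower), and 1 whose 6 Gy effect varied between days. In 1 fit of all tumors there were 7 chains after 6 Gy, 6 under INDO and 11 after 6 Gy + INDO (5 higher, 6 lower) on day 1, and 3 for 6 Gy + INDO on day 23. DESeq2 called 1 after 6 Gy, 1 under INDO and 3 after 6 Gy + INDO on day 15, and 1 for 6 Gy + INDO on day 23. Without a filter on low counts there were 10 for the interaction and 2 for 6 Gy + INDO against INDO. Without the 11 tumors high in receptor reads there were 0 for 6 Gy + INDO on day 3, 1 for 6 Gy + INDO against INDO, 8 for 6 Gy + INDO between day 23 and day 1, and 9 whose 6 Gy + INDO effect varied between days. Leaving out a day gave, for 6 Gy over the course, 13 without day 7; for INDO, 13 without day 3 and 10 without day 7; for 6 Gy + INDO against 6 Gy, 8 without day 15; for 6 Gy + INDO against INDO, 7 without day 15, 1 without day 3 and 2 without day 7; and for the interaction, 8, 2, 6 and 7 without days 1, 3, 7 and 23. The cause was not tested.

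Leaving out each tumor in turn gave 10 to 16 chains after 6 Gy, 7 to 15 under INDO and 12 to 16 after 6 Gy + INDO on day 1, where the majority turned to lower without 6 Gy + INDO tumor 2 (13 chains) or 4 (16 chains). On day 3 it gave 9 to 12 after 6 Gy, 11 to 15 under INDO and 9 to 20 after 6 Gy + INDO. On day 7 it gave 20 to 24 after 6 Gy, 10 to 15 under INDO and 23 to 28 after 6 Gy + INDO, and over the course 23 to 26 after 6 Gy, 18 to 26 under INDO and 24 to 28 after 6 Gy + INDO. On days 15 and 23 it gave 0 to 0 for each treatment. It gave 10 to 14 for 6 Gy + INDO against 6 Gy, 2 to 6 against INDO, 10 to 19 for the interaction, and 10 to 16 (6 Gy), 11 to 17 (INDO), 10 to 19 (6 Gy + INDO) and 4 to 11 (control) between day 23 and day 1. Of 308 single calls of chains, 140 held under every alternative, 89 were lost in at least 1 run without a tumor, and 3 changed sign, none past the test: Col4a1 after 6 Gy + INDO over the course with housekeeping scaling (0.0033, adjusted p = 0.9999), and, without tumors high in receptor reads, Col22a1 (-0.11, adjusted p = 0.963) and Col4a3 (-0.0090, adjusted p = 1) in 6 Gy + INDO against 6 Gy.

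Tumors with the same replicate number were not paired in the main fits. Deviations of same-numbered tumors had median correlations of -0.0090 to 0.158 over the 5 days, and 22.2% to 58.3% of pairs were over 0.1. Same-numbered against other-numbered medians were 0.117 against -0.0504 on day 15 and 0.158 against -0.0391 on day 23. On days 1, 3 and 7 they were -0.0090 against 0.0288, 0.0635 against 0.0033 and 0.0392 against 0.0261. With the number as a replicate block, 25 chains were called after 6 Gy, 24 under INDO and 27 after 6 Gy + INDO over the course, and 15 for the interaction, and no count moved by over 1.5 times. The tests of variation between days had RLE factors, housekeeping scaling, no filter and the tumors high in receptor reads as alternatives, chosen after seeing the data. Libraries held 20995830 to 109300093 counts, and chains under 1 CPM rest on few counts in the shallower ones.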
